A study of Mus musculus with 9 samples.

Results

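The p21-activated kinases (PAKs) and the small GTPases that switch them on were followed through inhibition of EZH2 in a mouse alpha cell line. The members were the kinase genes Pak1, Pak2, Pak3, Pak4 and Pak6 and the GTPase genes Rac1 and Cdc42, chosen by symbol, and all 7 were found among the 33212 genes of the count table. All 7 also passed the filter on low counts that left 14754 genes. They were assembled around Pak1, which had already been seen among the largest differences of this same comparison. The members' differences are therefore given as a description, with standard errors and no test, and support nothing by themselves. Besides Pak1 (ENSMUSG00000030774) and Rac1, placed below, the genes lie in GRCm38 at Pak2 chromosome 16 32016290 to 32079342 (minus strand), Pak3 chromosome X 143518591 to 143797796 (plus strand), Pak4 chromosome 7 28558819 to 28598185 (minus strand), Pak6 chromosome 2 118663303 to 118698020 (plus strand), Cdc42 chromosome 4 137319696 to 137357720 (minus strand). Poly-A RNA had been sequenced from αTC1 cells, a line derived from glucagon-producing cells of the mouse pancreas, grown in low-glucose medium with serum. The cells had been kept for 7 days with 4 µM EPZ011989 (n = 4 libraries) or with its solvent DMSO (n = 5). EPZ011989 blocks EZH2, the enzyme of Polycomb repressive complex PRC2 that marks silent genes by methylating histone H3 at lysine 27. All libraries came from a single cell line, and the labels call them biological replicates without saying how cultures were separated, so errors and tests cover only how much these libraries vary, which may be technical.

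PAKs are serine/threonine kinases that reshape actin, adhesions and microtubules. Group I (Pak1, Pak2, Pak3) is held inactive by its own regulatory domain until GTP-bound Rac or Cdc42 binds it. Group II (Pak4, Pak5, Pak6) binds Cdc42 but depends on it less for kinase activity. In islet beta cells, Cdc42, Rac1 and Pak1 are known for the actin remodelling that carries insulin granules to the membrane during sustained glucose stimulation. GTPases are loaded with GTP by exchange factors (GEFs), switched off by GTPase-activating proteins (GAPs) and kept in the cytosol by dissociation inhibitors (GDIs).

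The genes differ in the DNA around their starts, shown here because PRC2 is known to bind preferentially at CpG-rich starts of silent genes. Each stretch covers 250 bases before to 50 after a RefSeq start (GRCm38.p6), 5′ to 3′ on the strand of the gene, with every CpG in capitals. Pak1 has 2 listed starts on chromosome 7, chr7:97788291-97788590 and chr7:97842689-97842988, both on the plus strand. They are set beside the first start of its paralog Pak3 (chrX:143518341-143518640, plus strand) and the start of Cdc42 (chr4:137357710-137358009, minus strand), genes that were expressed in both groups.
Pak1, start 1: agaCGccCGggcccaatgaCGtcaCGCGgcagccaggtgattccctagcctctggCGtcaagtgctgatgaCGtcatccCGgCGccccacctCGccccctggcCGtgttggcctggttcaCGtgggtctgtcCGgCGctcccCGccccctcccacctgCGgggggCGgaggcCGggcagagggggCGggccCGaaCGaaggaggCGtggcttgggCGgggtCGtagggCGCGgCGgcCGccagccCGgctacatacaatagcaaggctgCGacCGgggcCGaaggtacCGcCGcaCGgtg
Pak1, start 2: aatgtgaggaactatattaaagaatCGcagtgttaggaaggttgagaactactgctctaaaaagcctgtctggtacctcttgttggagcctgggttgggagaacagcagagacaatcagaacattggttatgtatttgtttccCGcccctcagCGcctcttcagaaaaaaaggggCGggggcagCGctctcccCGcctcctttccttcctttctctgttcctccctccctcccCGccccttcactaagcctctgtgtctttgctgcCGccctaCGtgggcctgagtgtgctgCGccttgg
Pak3, start 1: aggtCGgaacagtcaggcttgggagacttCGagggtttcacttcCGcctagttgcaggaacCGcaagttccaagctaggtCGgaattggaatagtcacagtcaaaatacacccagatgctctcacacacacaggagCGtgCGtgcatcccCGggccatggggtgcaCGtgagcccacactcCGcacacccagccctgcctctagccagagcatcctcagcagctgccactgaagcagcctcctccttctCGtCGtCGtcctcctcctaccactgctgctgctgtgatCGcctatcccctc
Cdc42: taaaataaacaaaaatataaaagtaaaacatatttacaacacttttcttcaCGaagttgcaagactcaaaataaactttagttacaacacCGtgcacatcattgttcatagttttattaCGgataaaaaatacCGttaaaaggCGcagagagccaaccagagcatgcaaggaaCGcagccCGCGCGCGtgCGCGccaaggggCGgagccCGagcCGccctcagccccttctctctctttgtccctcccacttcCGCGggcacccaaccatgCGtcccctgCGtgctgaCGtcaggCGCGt
The first Pak1 stretch holds 35 CpGs at 73.0% GC, as many CpGs as or more than 93.8% of the 32851 listed promoters, whose median is 7. The other Pak1 start holds 10 CpGs. The Pak3 stretch holds 14 and the Cdc42 stretch 22, and the Pak4 start, not printed, also holds 22. Starts 2 and 3 of Pak3, not printed, hold 3 and 4. The 2 Pak6 starts, also not printed, hold 18 and 35. The second of these Pak6 starts thus equals the first Pak1 stretch in CpGs, at 75.3% GC, and Pak6 was expressed in both groups. The first Pak1 stretch also holds the palindrome TGACGTCA at 2 places, 234 and 182 bases before the start, which reads the same on both strands. This is the full cAMP response element recognised by CREB and ATF proteins, and it was looked for after the letters had been seen. It occurs in 1.79% of all listed promoters and at 2 or more places in 0.0396%. The Cdc42 stretch holds it within the bases after the start, and the other PAK stretches listed hold none. These are matches of letters and not measured sites. Pak2 and Rac1 had no entry.

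Pak1 was near the limit of detection in DMSO cells and plainly expressed with EPZ011989. It had 983, 866, 1380 and 1061 counts in the 4 EPZ011989 libraries, against 15, 17, 31, 0 and 0 counts in the 5 DMSO libraries. Scaled to library size these are, in CPM (counts relative to the scaled library total), 13.03, 12.2, 18.2 and 14.9 CPM with EPZ011989, against 0.203, 0.250, 0.429, 0 and 0 CPM with DMSO. The lowest EPZ011989 library lay 28.4-fold above the highest DMSO library. The means were 14.6 ± 2.7 CPM with EPZ011989 (SD, n = 4) and 0.177 ± 0.182 CPM with DMSO (n = 5), an 82.6-fold ratio. Values written with ± are means and SDs over the 4 EPZ011989 and the 5 DMSO libraries unless given as SE. The fitted log2 fold change was 6.32 ± 0.59 (SE). Its size rests on few DMSO fragments. Low counts in this table are uneven in frequency, so a count may not be a single fragment. If a fragment gives about 4 counts, a count of 0 still allows 0.203 and 0.171 CPM in the 2 empty libraries at 3 fragments. Without DMSO replicate 3 the log2 fold change was 6.92 and without DMSO replicate 5 it was 5.98.

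The other group I kinases were present in both groups. Pak2, the ubiquitous PAK, had 100, 105, 98.0 and 88.0 CPM with EPZ011989, against 129, 116, 115, 115 and 106 CPM with DMSO. Every EPZ011989 library lay below every DMSO library, though the highest EPZ011989 library and the lowest DMSO library were nearly equal, at 105.2 and 105.9 CPM. Its means were 97.8 ± 7.2 CPM with EPZ011989 and 116.2 ± 8.1 CPM with DMSO, a log2 fold change of -0.25 ± 0.08 (SE).

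Pak3, a kinase best known from neurons, had 18.7, 26.9, 18.2 and 16.5 CPM with EPZ011989, against 19.2, 16.4, 15.3, 16.8 and 12.5 CPM with DMSO. The groups overlapped, and EPZ011989 replicate 2 alone lay above all DMSO libraries. The log2 fold change was 0.33 ± 0.16 (SE), and without that library it was 0.14 ± 0.12.

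Of group II, Pak4, which acts in cell shape and adhesion, had groups that overlapped. It had 76.0, 61.5, 82.8 and 84.5 CPM with EPZ011989, against 75.3, 73.7, 73.3, 72.1 and 79.1 CPM with DMSO. The log2 fold change was 0.03 ± 0.09 (SE), and it changed sign when single libraries were left out (-0.04 to 0.11).

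Pak6, first described as an androgen receptor partner, was the lowest kinase with EPZ011989. It had 4.40, 4.50, 3.59 and 3.87 CPM with EPZ011989, against 5.47, 4.91, 6.71, 6.67 and 4.47 CPM with DMSO. The groups touched at one end only, where EPZ011989 replicate 2 lay just above DMSO replicate 5. The log2 fold change was -0.46 ± 0.15 (SE). The remaining group II kinase gene, Pak5, listed under its other symbol Pak7, was not counted once in any of the 9 libraries (limit 0.158 to 0.203 CPM, reckoned as for Pak1).

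The GTPase genes were the most abundant members. Rac1 had 282, 203, 286 and 291 CPM with EPZ011989, against 236, 238, 239, 254 and 258 CPM with DMSO. Of the EPZ011989 libraries, 3 lay above all DMSO libraries and replicate 2 lay below them all. The log2 fold change was 0.12 ± 0.10 (SE) over all libraries and 0.22 ± 0.05 without replicate 2. In the GENCODE M21 annotation 51.4% of the Rac1 exon length (chromosome 5, 143503634 to 143528036, minus strand) overlaps exons of Daglb on the other strand, so reads there cannot be told apart without strand. Daglb, a diacylglycerol lipase gene, had 32.1 ± 2.2 CPM with EPZ011989 and 29.9 ± 1.4 CPM with DMSO.

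Cdc42 had 376, 339, 377 and 400.3 CPM with EPZ011989, against 349, 356, 330.3, 351 and 370.04 CPM with DMSO. The groups overlapped through EPZ011989 replicate 2. The log2 fold change was 0.09 ± 0.07 (SE) over all libraries and 0.12 ± 0.05 without replicate 2. No 50-base stretch of a Pak1 or Pak3 transcript occurs in a transcript of another gene, and the share for Pak2, Pak4, Pak6 and Cdc42 was at most 3.94%.

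**Figure D1:**
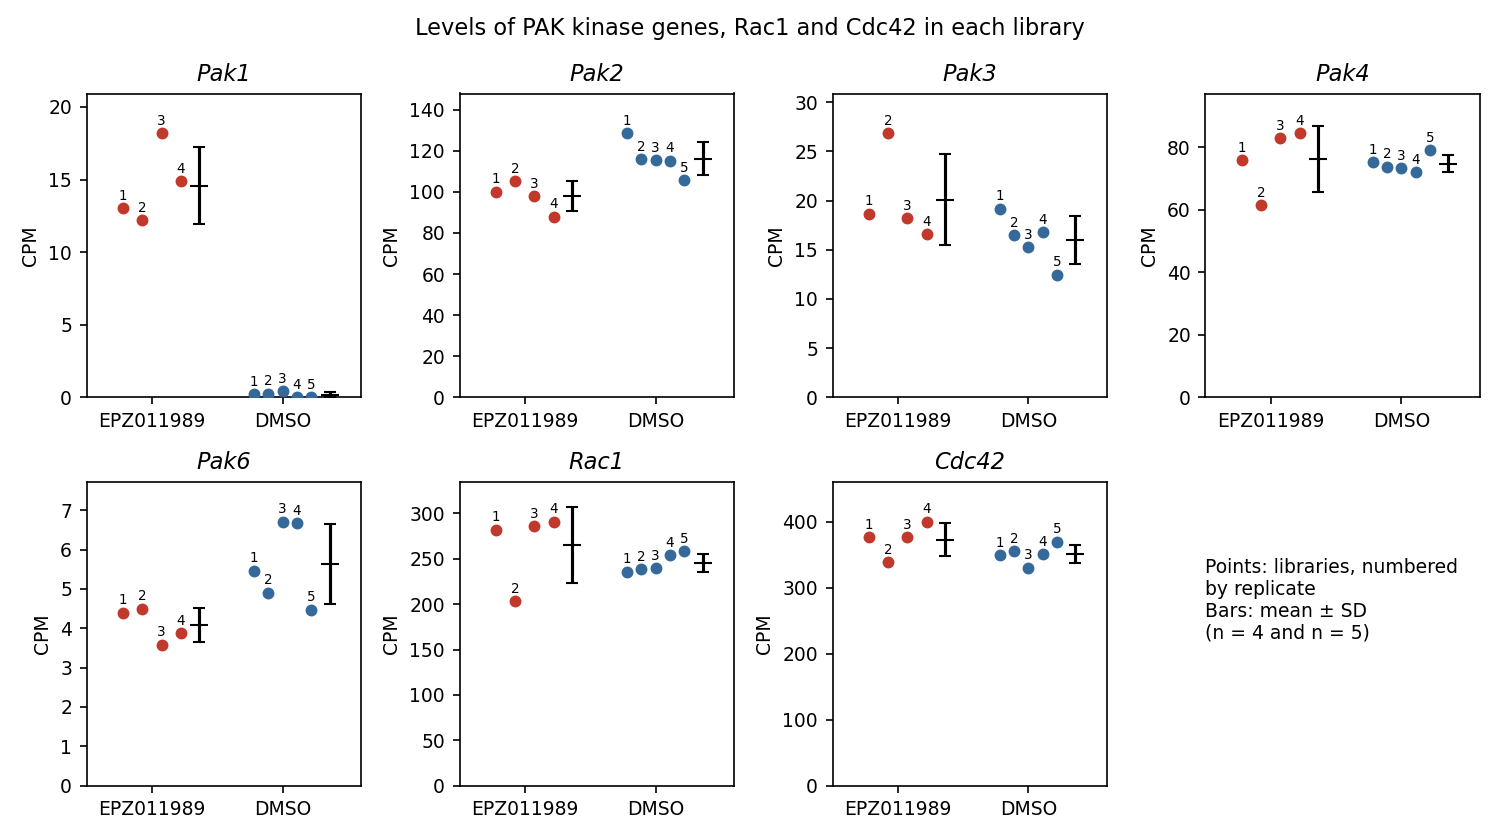
CPM (vertical axes, linear from 0) of the 7 genes in each library, with EPZ011989 in red and DMSO in blue. Points are libraries numbered by replicate and bars are means ± SD (n = 4 and n = 5). Pak1 lies between 12.2 and 18.2 CPM with EPZ011989 and at or under 0.429 CPM with DMSO, while Pak3, Pak4, Pak6, Rac1 and Cdc42 overlap between groups.

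Of the 7 members, 1 lay higher in all EPZ011989 libraries than in any DMSO library (Pak1) and 1 lower (Pak2). Over all 14754 tested genes the groups did not overlap for 16.1% higher and 8.77% lower. Since Pak1 brought the members together, nothing is read from this count. Without EPZ011989 replicate 2, the groups also did not overlap for Rac1 and Cdc42, both higher, and Pak6, lower, against 21.8% higher and 15.7% lower of all tested genes.

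EPZ011989 replicate 2 lay at one end of its group for every member. It was the lowest EPZ011989 library for Pak1, Pak4, Rac1 and Cdc42 and the highest for Pak2, Pak3 and Pak6. The first 4 genes have 3943, 3535, 4496 and 2966 bases of annotated exon, and the other 3 have 6795, 9552 and 5211, so its place followed exon length. Over 9298 genes averaging 10 CPM or more, its median log2 difference from the other EPZ011989 libraries was -0.40 for genes under 2 kb of exon and 0.26 for genes of 6 kb or more. Replicate 4 ran the other way, at 0.36 and -0.23, and was the lowest EPZ011989 library for Pak2 and Pak3 and the highest for Pak4, Rac1 and Cdc42. For Pak1 and Pak6 replicate 4 lay at neither end. In DMSO the same trend was smaller, from -0.18 and 0.11 in replicate 1 to 0.19 and -0.12 in replicate 5. Its part in the members' differences was not tested.

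Levels of different genes were compared as CPM per kilobase of annotated exon. With EPZ011989 the order was Cdc42 (125.8 ± 8.5 CPM per kb, SD, n = 4), Rac1 (59.1 ± 9.3), Pak4 (21.6 ± 3.0), Pak2 (14.4 ± 1.1), Pak1 (3.70 ± 0.68), Pak3 (2.10 ± 0.48) and Pak6 (0.785 ± 0.083). In DMSO it was Cdc42 (118 ± 5 CPM per kb, n = 5), Rac1 (54.5 ± 2.3), Pak4 (21.1 ± 0.8), Pak2 (17.1 ± 1.2), Pak3 (1.68 ± 0.25), Pak6 (1.08 ± 0.20) and Pak1 (0.0448 ± 0.0461). The order is the same apart from Pak1, which stood last in DMSO and between Pak2 and Pak3 with EPZ011989. Neighbours in each order did not overlap in any library, but with library size alone, or with the median length of coding transcripts, Pak3 and Pak6 overlapped in DMSO.

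Within group I, Pak2 remained the main kinase transcript by this measure. Pak1 made up 18.4 ± 3.5% of the per-length level of Pak1, Pak2 and Pak3 with EPZ011989 and 0.233 ± 0.246% with DMSO. Pak2 made up 71.3 ± 2.2% with EPZ011989 and 90.9 ± 0.8% with DMSO, and Pak3 10.4 ± 1.9% with EPZ011989 and 8.87 ± 0.74% with DMSO. The summed level of the group was 20.2 ± 1.3 CPM per kb with EPZ011989 and 18.8 ± 1.5 CPM per kb with DMSO, with ranges that overlapped (18.5 to 21.4 with EPZ011989 and 16.9 to 20.99 with DMSO). With the median length of coding transcripts, a choice made after seeing the data, Pak1 made up 21.2% with EPZ011989. Over all 5 measured kinases Pak1 held 8.65 ± 1.153% with EPZ011989 and 0.108 ± 0.113% with DMSO, and Pak4 held 50.5 ± 4.8% with EPZ011989 and 51.5 ± 2.5% with DMSO.

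**Figure D2:**
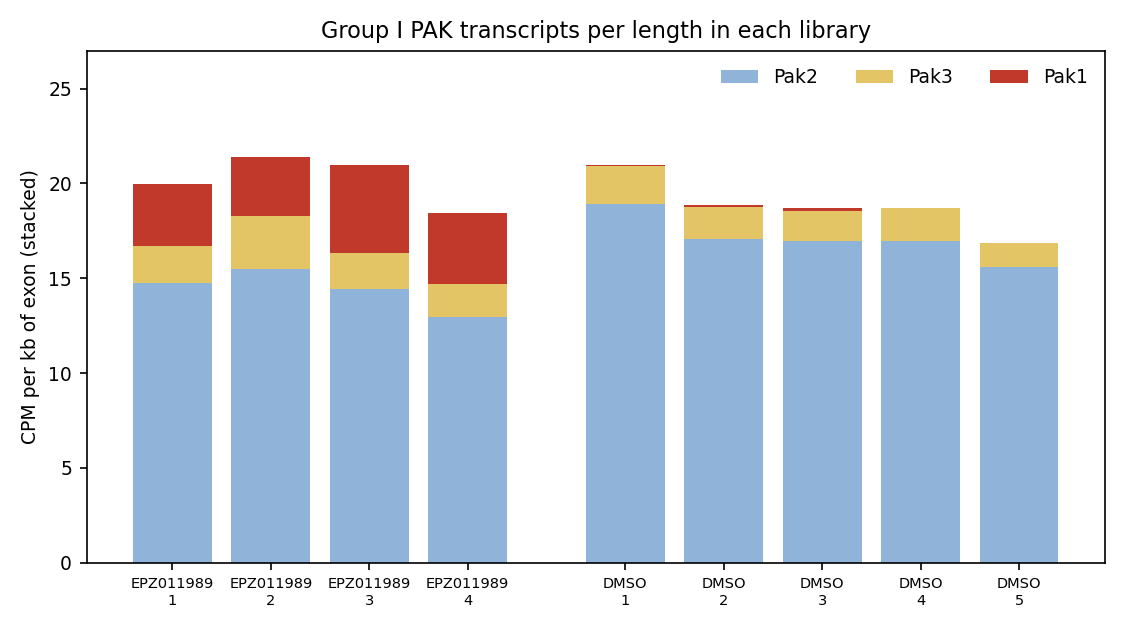
Stacked CPM per kb of annotated exon (vertical axis, from 0) of Pak2, Pak3 and Pak1 in each library, EPZ011989 on the left and DMSO on the right. The total stays between 16.9 and 21.4 in all 9 libraries, and a visible Pak1 share appears in the 4 EPZ011989 libraries.

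The genes whose profile was most like that of Pak1 were found by the root mean square difference of log2(CPM + 0.5) values over the 9 libraries, each gene centred on its own mean, among 11083 named genes of at least 1 CPM. They were Col6a2, a collagen VI chain (0.39), Pcp4, a calmodulin-binding protein (0.42), Iqsec3, an exchange factor for ARF GTPases (0.44), A2m, a protease inhibitor (0.47), and Rtn1, a reticulon (0.47), where the median gene was at 2.27. Iqsec3 had 24.4, 27.4, 18.3 and 18.6 CPM with EPZ011989, against 0.731, 0.678, 1.04, 0.169 and 1.00 CPM with DMSO. A2m had 5.45, 7.52, 6.12 and 9.96 CPM with EPZ011989 and a count of 0 in every DMSO library. Pcp4 shares 23.7% of its exon length with Igsf5. These genes lie on chromosomes 10, 16, 6, 6 and 12, away from Pak1 on chromosome 7, and were picked for their likeness.

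No tested gene within 1 Mb of Pak1 differed by as much as Pak1, which was itself picked for its large difference. Pak1 lies on chromosome 7 from 97788541 to 97912381 (GRCm38, plus strand). Of its 5 nearest tested genes, Aqp11, an aquaporin gene 50.3 kb before it, had 3.13 ± 0.22 CPM with EPZ011989 and 2.53 ± 0.75 CPM with DMSO (adjusted p = 0.329, quasi-likelihood F test of edgeR, Benjamini-Hochberg). Clns1a, a chloride channel and methylosome protein gene, fell to 116 ± 17 CPM with EPZ011989, against 148 ± 9 CPM with DMSO (adjusted p = 0.0232, edgeR), a call lost without EPZ011989 replicate 1 (0.0565) or DMSO replicate 2 (0.0554), 4 (0.0523) or 5 (0.0572), or with upper-quartile factors (0.0611). Rsf1, a chromatin remodelling factor, had 51.8 ± 9.0 CPM with EPZ011989 and 51.7 ± 1.4 CPM with DMSO (adjusted p = 0.988, edgeR), and the unnamed gene model Gm15623 was under 0.2 CPM in both groups on average. Myo7a, an unconventional myosin 139 kb after Pak1, rose to 35.3 ± 2.2 CPM with EPZ011989, against 27.9 ± 2.4 CPM with DMSO (adjusted p = 0.0119, edgeR), a call lost without EPZ011989 replicate 1 (0.0653). Within 1 Mb of Pak1, 5 of 27 tested genes rose and 2 fell, where 16.2% of all tested genes rose and 7.96% fell. Their median log2 fold change was 0.00, and over all tested genes it was 0.03.

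**Figure D3:**
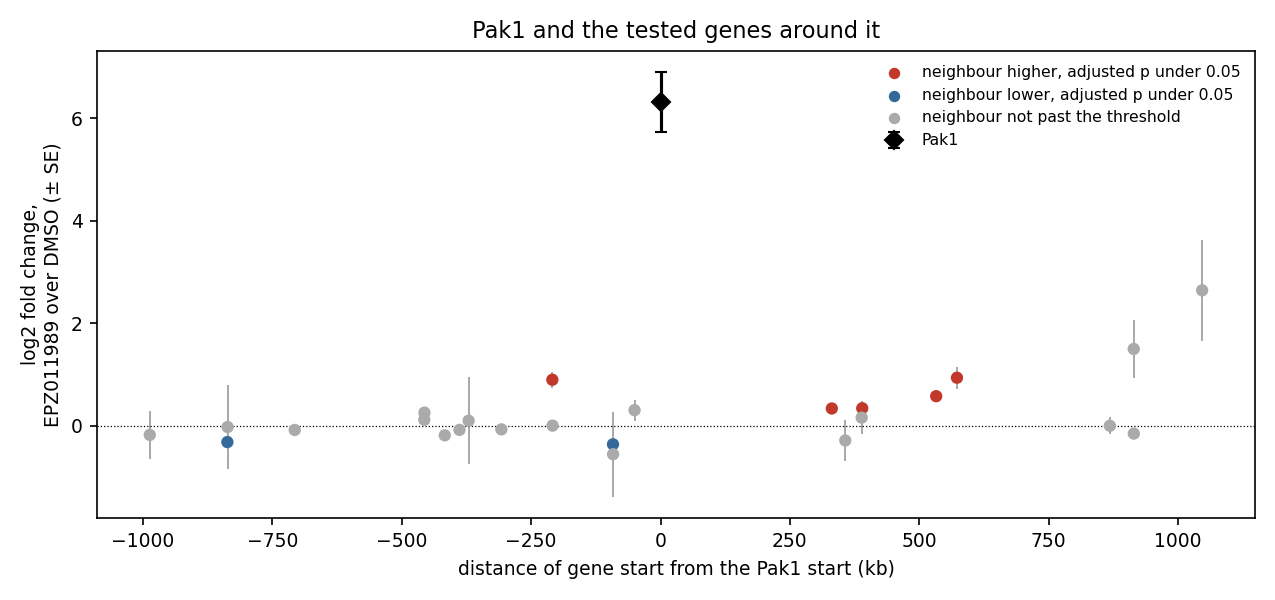
Log2 fold change with its SE (vertical axis, EPZ011989 over DMSO) of Pak1 and 25 tested genes against the distance of their start from the Pak1 start in kb. Pak1 stands at 6.32, and all neighbours past the threshold lie between -0.36 and 0.94. The highest neighbour, Wnt11 at 2.64, is not past it.

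The wider pathway was read from 6 lists of 120 genes, drawn up by known role with earlier results of these data in view, of which 107 passed the filter. By the edgeR test 29 rose and 7 fell at an adjusted p under 0.05, or 27.1% and 6.54%. Over all 14754 tested genes 2388 rose (16.2%) and 1174 fell (7.96%), and under upper-quartile scaling instead of TMM 2735 rose and 776 fell, so the share of rises among all calls was 67.0% with TMM and 77.9% with upper-quartile factors. The listed genes were not matched on level. Under 1 CPM 1 of 9 listed genes rose, where 20.8% of all tested genes did, and at 1 to 10 CPM 13 of 20 rose, where 33.4% did. At 10 to 100 CPM 14 of 58 listed genes rose, where 11.7% of all tested genes did, and at 100 CPM or more 1 of 20 rose, where 4.55% did. Single libraries moved the 7 lower calls: there were 4 without EPZ011989 replicate 1, 13 without replicate 2, 4 without replicate 3 and 3 without DMSO replicate 2.

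Some relatives of Rac1 and Cdc42 were among the genes that rose, but Rac3 was not. Of 7 other Rac and Cdc42 family genes 5 were tested, 3 rose and 0 fell, with a median log2 fold change of 0.81. Over all tested genes 16.2% rose and 7.96% fell, and at 1 to 10 CPM, the level of Rhou and Rhov, 33.4% rose. Rhou, a Cdc42-related GTPase that binds PAKs, had 7.44, 8.05, 8.84 and 7.42 CPM with EPZ011989, against 3.02, 2.39, 3.07, 2.31 and 2.94 CPM with DMSO, with no overlap (log2 fold change 1.53 ± 0.13 SE, adjusted p = 1.3e-05, edgeR). Rhoq (TC10), known for glucose transporter traffic in fat cells, rose to 40.8 ± 4.1 CPM with EPZ011989, against 23.2 ± 1.9 CPM with DMSO (adjusted p = 8.44e-05, edgeR), and Rhov, close to Rhou, to 2.21 ± 0.29 CPM with EPZ011989, against 0.672 ± 0.302 CPM with DMSO (adjusted p = 0.00337). Rhog, an upstream activator of Rac, had 27.4 ± 6.7 CPM with EPZ011989 and 20.5 ± 2.5 CPM with DMSO (adjusted p = 0.0893, edgeR) and passed as higher without EPZ011989 replicate 2 (0.00275). Rac3 had 2.27 ± 0.20 CPM with EPZ011989 and 2.65 ± 0.72 CPM with DMSO (adjusted p = 0.516, edgeR). Rac2, not tested, had no count with EPZ011989 and averaged 0.0256 CPM with DMSO, and Rhoj had no count in any library.

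Exchange factors and their partners rose for 10 of 29 tested genes (34.5%, against 16.2% of all tested genes). They fell for 2 (6.90%, against 7.96%), and their median log2 fold change was 0.23. Kalrn, a Rac exchange factor of neurons, had 16.0, 20.8, 14.2 and 12.4 CPM with EPZ011989, against 4.22, 3.58, 5.48, 5.03 and 2.44 CPM with DMSO, with no overlap (log2 fold change 1.93 ± 0.23 SE, adjusted p = 1.27e-04, edgeR). Elmo1, the scaffold that lets DOCK proteins load Rac, rose to 9.93 ± 1.03 CPM with EPZ011989, against 4.01 ± 0.25 CPM with DMSO (adjusted p = 1.02e-05, edgeR). The Rac exchange factor genes Dock5 and Dock4 rose to 10.1 ± 1.5 and 6.36 ± 2.21 CPM with EPZ011989, against 4.06 ± 0.67 and 2.05 ± 0.25 CPM with DMSO (adjusted p = 8.39e-05 and 2.42e-04, edgeR). Trio, a paralog of Kalrn and the most abundant gene of the list that was not called, had 100.5 ± 39.5 CPM with EPZ011989 and 116 ± 18 CPM with DMSO (adjusted p = 0.571, edgeR), and passed as lower without EPZ011989 replicate 2 (0.0214).

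The 2 largest rises that passed the test among pathway genes were GAPs, Srgap3 and Arhgap31. Of 16 tested GAP and GDI genes 6 rose (37.5%, against 16.2% of all tested genes) and 1 fell (6.25%, against 7.96%). Their median log2 fold change was 0.32. Srgap3, a Slit-Robo GAP for Rac, had 13.2, 16.3, 12.5 and 12.95 CPM with EPZ011989, against 1.96, 1.30, 1.51, 1.74 and 1.16 CPM with DMSO (log2 fold change 3.16 ± 0.17 SE, adjusted p = 6.99e-07, edgeR). Every EPZ011989 library lay far above every DMSO library. Chn1, a chimaerin that switches off Rac, had 34.6, 26.0, 32.5 and 33.2 CPM with EPZ011989, against 8.01, 8.28, 8.06, 10.01 and 9.17 CPM with DMSO (log2 fold change 1.86 ± 0.11 SE, adjusted p = 1.09e-06, edgeR), again with no overlap. Arhgap31, a GAP for Cdc42 and Rac, rose to 5.81 ± 0.80 CPM with EPZ011989, against 0.850 ± 0.414 CPM with DMSO, and Srgap1 to 7.43 ± 1.21 CPM with EPZ011989, against 1.97 ± 0.62 CPM with DMSO (adjusted p = 6.11e-05 and 1.06e-04, edgeR). Arhgdia, the main RhoGDI, had 492 ± 119 CPM with EPZ011989 and 469 ± 39 CPM with DMSO (adjusted p = 0.799, edgeR).

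Among 13 direct partners and regulators of PAKs 1 rose (7.69%, against 16.2% of all tested genes) and 3 fell (23.1%, against 7.96%). Most of these genes lay above 10 CPM. Of all tested genes at 10 to 100 CPM 11.7% rose and 10.2% fell, and at 100 CPM or more 4.55% and 15.0%. Their median log2 fold change was 0.04. The rise was Pxn (paxillin), a focal adhesion scaffold of the PAK, PIX and GIT complex, with 37.5, 27.3, 38.8 and 39.5 CPM with EPZ011989, against 12.7, 13.6, 14.4, 14.8 and 14.3 CPM with DMSO (log2 fold change 1.36 ± 0.11 SE, adjusted p = 9.95e-06, edgeR). The groups lay well apart. The falls were small and each depended on single libraries and on the scaling. Nck1, an adaptor that brings Pak1 to receptors, fell to 33.7 ± 2.2 CPM with EPZ011989, against 40.1 ± 0.9 CPM with DMSO (adjusted p = 0.0211, edgeR), and did not pass without EPZ011989 replicate 1 (0.0569) or DMSO replicate 2 (0.0504), or with upper-quartile factors (0.0667). Ppm1f, a phosphatase that inactivates PAKs, fell to 44.5 ± 7.7 CPM with EPZ011989, against 58.02 ± 3.20 CPM with DMSO (adjusted p = 0.0232, edgeR), and did not pass without EPZ011989 replicate 3 (0.0704) or DMSO replicate 2 (0.0545), or with library size only (0.0633). Pak1ip1, a Pak1-binding inhibitor that also acts in ribosome assembly, fell to 83.2 ± 8.7 CPM with EPZ011989, against 98.7 ± 5.1 CPM with DMSO (adjusted p = 0.0493, edgeR), a call lost without any single library other than EPZ011989 replicate 2 (0.0625 to 0.124), and with upper-quartile factors (0.145), library size only (0.0735), no filter (0.0556), the stricter filter (0.0562) or counts divided by 4 (0.0525). Nf2 (merlin), which restrains group I PAKs, had 167 ± 6 CPM with EPZ011989 and 164 ± 6 CPM with DMSO (adjusted p = 0.826, edgeR).

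Of 17 tested substrate and cofilin branch genes 2 rose (11.8%, against 16.2% of all tested genes) and 0 fell (against 7.96%). Most of them lay at 10 CPM or more, where fewer genes rose. At 10 to 100 CPM 11.7% of all tested genes rose and 10.2% fell, and at 100 CPM or more 4.55% and 15.0%. The other 15 did not pass, and the median log2 fold change of the list was 0.06. Limk1, the kinase through which PAKs switch off cofilin, rose to 69.5 ± 6.1 CPM with EPZ011989, against 58.5 ± 2.9 CPM with DMSO (log2 fold change 0.25 ± 0.07 SE, adjusted p = 0.0317, edgeR), a call lost without any single library other than EPZ011989 replicate 2 (0.0515 to 0.152), and with no filter (0.0521). Ssh3, a slingshot phosphatase gene of the branch that reactivates cofilin, rose to 5.30 ± 0.89 CPM with EPZ011989, against 3.02 ± 0.54 CPM with DMSO (adjusted p = 0.00552, edgeR). Cfl1 (cofilin) itself had 1040 ± 197 CPM with EPZ011989 and 1004 ± 85 CPM with DMSO (adjusted p = 0.828, edgeR).

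Of 27 tested genes for other Rac and Cdc42 effectors 7 rose (25.9%, against 16.2% of all tested genes) and 1 fell (3.70%, against 7.96%). Their median log2 fold change was 0.04. Pard6g, a polarity protein that binds Cdc42, rose to 17.4 ± 2.1 CPM with EPZ011989, against 9.81 ± 0.77 CPM with DMSO (adjusted p = 1.71e-04, edgeR). The Cdc42-binding Borg genes Cdc42ep4 and Cdc42ep2 rose to 9.14 ± 1.19 and 2.92 ± 1.03 CPM with EPZ011989, against 3.69 ± 0.83 and 1.06 ± 0.17 CPM with DMSO (adjusted p = 3.26e-04 and 0.00215, edgeR). Tnk2, the Cdc42-associated kinase ACK, rose to 108 ± 6 CPM with EPZ011989, against 87.2 ± 1.5 CPM with DMSO (adjusted p = 0.00331, edgeR). Nckap1 of the WAVE actin complex had 302 ± 40 CPM with EPZ011989 and 321 ± 17 CPM with DMSO (adjusted p = 0.558, edgeR).

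**Figure D4:**
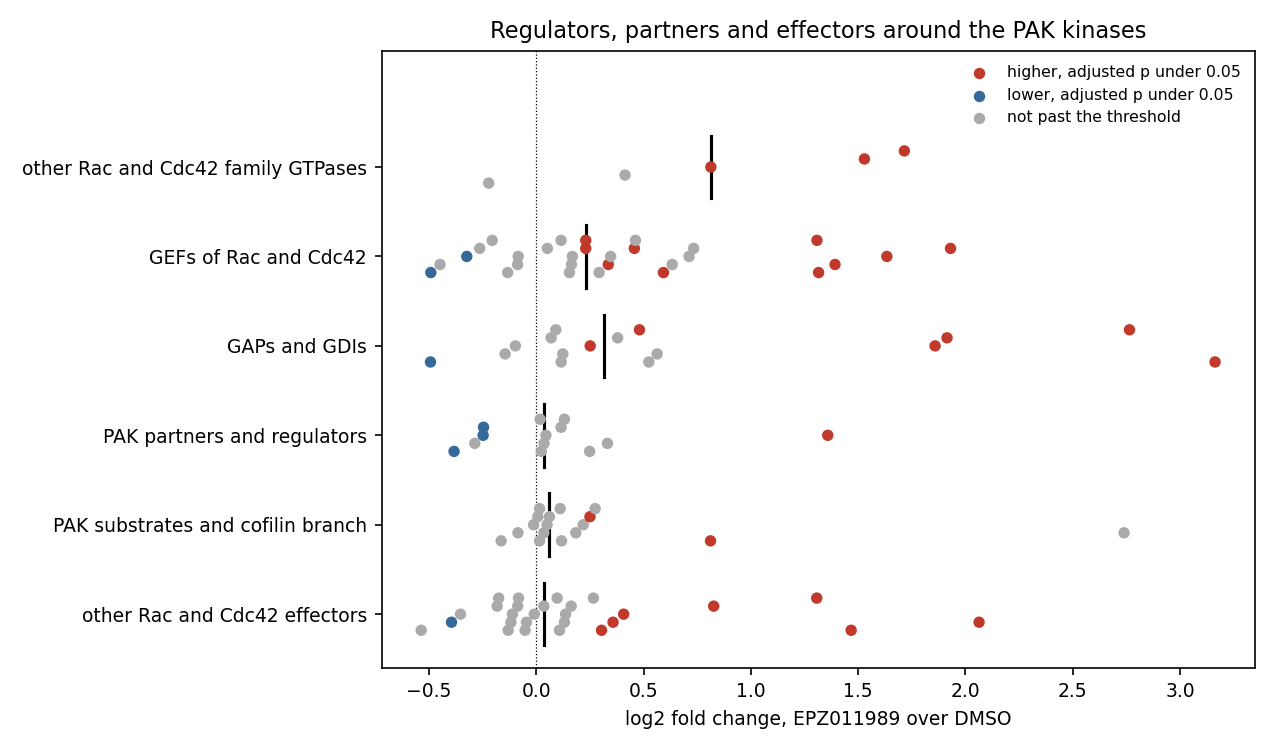
Log2 fold changes (horizontal axis, EPZ011989 over DMSO) of the 107 tested pathway genes by list, with black lines at list medians and colours for the edgeR call. Medians run from 0.04 to 0.81, the largest rise is Srgap3 at 3.16, and the lowest gene past the threshold is Abr at -0.49.

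The libraries kept the alpha cell label. Summed levels of 8 alpha cell markers were 19774 to 26675 CPM with EPZ011989 and 23597 to 25967 CPM with DMSO, and Gcg stood at 18633 ± 2338 CPM with EPZ011989 and 19280 ± 804 CPM with DMSO. Pak1 and Pak3 are also expressed by neurons, and the 10 neuron markers, all tested, gave 2 higher and 2 lower. Their sums were 2392 to 2664 CPM with EPZ011989 and 2819 to 3002 CPM with DMSO. Gap43 rose (30.9 ± 3.2 CPM with EPZ011989, 8.19 ± 1.23 CPM with DMSO), as did Rbfox3 (0.663 ± 0.148 CPM with EPZ011989, 0.0371 ± 0.0831 CPM with DMSO). Dcx fell (38.1 ± 11.8 CPM with EPZ011989, 70.6 ± 7.7 CPM with DMSO). Nefm, the largest part of the sum, also fell (1222 ± 164 CPM with EPZ011989, 1493 ± 71 CPM with DMSO). Of 9 fibroblast markers 5 were tested and 4 rose, with sums of 30.9 to 42.3 CPM with EPZ011989, against 7.31 to 10.01 CPM with DMSO. Most of that was Pdgfra, at 27.6 ± 5.9 CPM with EPZ011989 and 7.29 ± 0.96 CPM with DMSO. The other rises were Thy1 (3.28 ± 0.74 CPM with EPZ011989, 0 with DMSO), Col1a1 (1.145 ± 0.335 CPM with EPZ011989, 0.128 ± 0.109 CPM with DMSO) and Pdgfrb (0.777 ± 0.326 CPM with EPZ011989, 0.0470 ± 0.0765 CPM with DMSO). Dcn and Lum averaged under 0.03 CPM with EPZ011989 and were at 0 with DMSO. For comparison, 20.8% of all tested genes rose under 1 CPM, 33.4% at 1 to 10 CPM and 11.7% at 10 to 100 CPM. At the same levels 0.554%, 3.41% and 10.2% fell. Of 6 endothelial markers 3 were tested and 2 rose (sums of 1.89 to 3.41 CPM with EPZ011989, against 0.332 to 1.16 CPM with DMSO). These were Kdr (0.314 ± 0.194 CPM with EPZ011989, 0 with DMSO) and Vwf (1.58 ± 0.33 CPM with EPZ011989, 0.638 ± 0.298 CPM with DMSO). Cdh5 and Tie1, not tested, averaged 0.230 and 0.125 CPM with EPZ011989 and were at 0 with DMSO, and Tek had no count with EPZ011989. Of 8 beta cell markers 4 were tested, 3 rose and 1 fell (21.4 to 26.4 CPM with EPZ011989, against 19.9 to 23.0 CPM with DMSO). Ins2 rose to 4.85 ± 1.46 CPM with EPZ011989, against 0.653 ± 0.243 CPM with DMSO, Mafa to 1.78 ± 0.30 CPM with EPZ011989, against 0.541 ± 0.282 CPM with DMSO, and Iapp to 0.840 ± 0.129 CPM with EPZ011989, against 0.0304 ± 0.0680 CPM with DMSO. G6pc2, which makes up most of that sum, fell to 16.9 ± 1.5 CPM with EPZ011989, against 20.5 ± 1.6 CPM with DMSO, and Ins1, Pdx1 and Ucn3 were at 0 everywhere. Of 5 leukocyte markers measured 2 were tested and 0 were called (1.36 to 1.63 CPM with EPZ011989, against 1.18 to 1.86 CPM with DMSO). The part of other cells in the Pak1 level was not tested, and in bulk RNA more expressing cells and more RNA per cell cannot be told apart.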

How the data were processed

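The authors deposited a table of gene counts for 9 libraries, made from captured poly-A RNA per the labels' protocols. HISAT2, StringTie and DESeq2, with the build mm10, appear in the submitters' processing notes with no role stated. Strand use is not given in the sources used here. A second deposited table, the same counts divided by a factor per library, was not used. Total counts were 60274140 to 74651782 per library. Among low counts 1 was the most frequent (3970 values), with 2108, 2160, 3046 and 2732 values at 2, 3, 4 and 5 and 1313 at 6, so the table does not fall off evenly and its counts may not be independent reads. Limits at 0 use 12 counts, on the assumption of about 4 per fragment, and cover counting error only.

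Genes were filtered with filterByExpr, scaled by TMM and tested with edgeR 4.0.16 (robust quasi-likelihood F test with a treatment term, R 4.3.3), two-sided, adjusted by Benjamini-Hochberg over 14754 genes and called at 0.05. The step was tested on simulated data, drawn independently for each gene and library. These data held neither the uneven low counts nor the exon length trend, so that test does not cover them. Standard errors were derived from the F statistic. Lengths, positions and overlaps come from GENCODE M21 (GRCm38, the assembly of mm10) and promoters from RefSeq. Members and lists were chosen with earlier results of these data known. Named genes were the members, Pak5, up to 4 called genes by smallest p and the most abundant uncalled gene per list, the 5 genes most like Pak1 and its 5 nearest. Alternatives were RLE, upper-quartile and library-size scaling, 2 filters, DESeq2 1.42.0, limma-voom (limma 3.58.1), counts divided by 4, a replicate block and leaving out each library. Transcript length was added after seeing the data.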

Additional observations from a re-analysis of the deposited data

Results flagged for a closer look

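Single libraries far from the rest of their group, by the gap to the nearest library over the range of the group, were looked for in 68 groups of the members and named pathway genes, where chance flags about 1 in 20. There were 4. EPZ011989 replicate 2 was low for Rac1, at 203 CPM where the others had 282 to 291, for Pxn, at 27.3 CPM where the others had 37.5 to 39.5, and for Pak1ip1, at 70.3 CPM where the others had 86.1 to 88.3. DMSO replicate 1 was high for Dock5, at 5.25 CPM where the others had 3.64 to 3.90.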

How the results depend on the processing

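Each of the 7 member log2 fold changes was recomputed under 18 settings. Pak2 ranged from -0.30 to -0.20, Pak3 from 0.14 to 0.38, Pak6 from -0.56 to -0.41, Rac1 from 0.05 to 0.22 and Cdc42 from 0.03 to 0.14. The lowest Pak3 and the highest Rac1 value came without EPZ011989 replicate 2. Pak4 lay between -0.04 and 0.11, and the other members kept their sign. Pak1 was at 7.66 with limma-voom and between 5.98 and 6.92 when a library was left out. Over all tested genes, 776 fell with upper-quartile factors in place of 1174. With single libraries left out, 1861 to 2939 rose and 781 to 2377 fell. For the pathway genes these counts were 23 to 34 and 3 to 13, and 4 fell with library size alone. Same-numbered libraries did not deviate together (r = 0.16, -0.39, -0.45 and 0.05 across genes), 0 of 4 EPZ011989 libraries correlated best with their own number, and with the replicate block 1550 genes rose and 471 fell, of them 22 and 3 pathway genes. For 38 other named genes, 639 of 682 recomputed values stayed on the same side of the threshold, 40 lost the call and 3 gained it. The sign changed in 20 of the 639, all in 5 genes that were not called under either setting (Rsf1, Cfl1, Nf2, Arhgdia and Gm15623). The block also ended the calls of Tnk2 (adjusted p = 0.0517, edgeR), Nck1 (0.115), Limk1 (0.0919), Clns1a (0.108), Myo7a (0.0977) and Pak1ip1 (0.18). Few counts limit precision for genes near 0, such as Pak1 with DMSO.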
